A study of Rattus norvegicus with 6 samples.

Results

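Chaperones help other proteins to fold. The gene set described here held 35 rat genes of the cytosolic and mitochondrial folding machinery, taken from a fixed list of symbols: 7 heat shock proteins that cells induce under stress, 3 constitutive cytosolic chaperones, 9 cochaperones of HSP70 and HSP90, 4 mitochondrial chaperones, the 8 subunits of the cytosolic chaperonin CCT, 3 subunits of prefoldin and the transcription factor Hsf1. A member was measured by the probe set that named it and no other gene, and by the brightest such probe set where there were several. On this basis 32 of the 35 members were measured, and all 32 were bright enough to be tested, out of 9928 genes tested. Hspa1b, Hspa8 and Hsp90aa1 were represented only by probe sets that name several genes, so no value is given for them.

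The cells were CD11b+CD163+ macrophages, which lie around the vessels and in the meninges of the brain, sorted by flow cytometry from the right hemisphere of adult male Sprague-Dawley rats after enzymatic dissociation and a density gradient. Rats 64, 65 and 66 had undergone occlusion of the right middle cerebral artery for 1 h followed by 16 h of reperfusion (ischemia), and rats 63, 68 and 69 were controls without ischemia. Each array held the RNA of a different rat, so n = 3 per group, and neither group carried a transgene. The occlusion was done under isoflurane with buprenorphine as analgesic, and whether controls received either is not given in the sources used here. The values are log2 signals after robust multi-array averaging (RMA), so that a difference of 1 is a 2-fold difference in signal. The comparison asked how the macrophage transcriptome responded to ischemia.

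Heat shock proteins are the classical targets of HSF1. When misfolded proteins accumulate, HSF1 forms trimers and binds heat shock elements, arrays of the unit GAA and its complement TTC, in promoters such as those of the HSP70, HSP40 and small heat shock protein genes. The CCT ring is a different machine. It folds newly made actin and tubulin, which prefoldin delivers to it, and its genes are expressed in all growing cells rather than only under stress.

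The heat shock element is shown for the members on which the results below turn, because it is the sequence that HSF1 binds. RefSeq promoter windows on GRCr8, from 250 bases before to 50 bases after the annotated start, were found for 30 of the 35 members. They were searched for 3 alternating units, GAANNTTCNNGAA or TTCNNGAANNTTC, and for 2 units, GAANNTTC or TTCNNGAA. Each pair of patterns covers both strands, and every match of 3 units contains matches of 2 units. Capitals mark the match and lower case the 8 bases on either side. With 3 units or more, the matches were in Hsph1 (36 to 24 bases before the start), in the shared Hspd1 and Hspe1 promoter (65 to 48 bases before the Hspe1 start), in Dnaja1 (9 to 21 bases after the start) and in Cct4 (25 to 37 bases after the start). Hspa8 held a pair of such matches as well.
Hsph1, chr12:10427324-10427352, plus strand: gccgcagaTTCTGGAAAGTTCtcctcagt
Hspe1 and Hspd1, chr9:64084254-64084287, plus strand: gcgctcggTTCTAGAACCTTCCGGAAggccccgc
Dnaja1, chr5:60638405-60638433, plus strand: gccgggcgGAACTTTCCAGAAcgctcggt
Cct4, chr14:101193074-101193102, plus strand: gcgtcgctTTCTGGAAGGTTCgtggaggc

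Hspd1 and Hspe1, which encode the mitochondrial chaperonin and its lid, are transcribed away from each other, and their windows overlapped by 211 bases, so that they hold 1 element and not 2 independent ones. Inducible members other than Hsph1 that had a window held 2 units.
Bag3, chr1:192533320-192533343, plus strand: tgggaccaGAAGTTTCtagccggc
Hspb1, chr12:26432415-26432438, minus strand: caactagaGAAGTTTCcagatggg
Hspb1, chr12:26432395-26432418, minus strand: tgggggcaGAACCTTCctggccct
Dnajb1, chr19:41431137-41431160, minus strand: gaggggcgGAAGGTTCtggagggc
The pattern of 3 units occurred in 6 of the 30 member windows (20%), against 267 of 33469 windows over all promoters (0.798%). With 2 units the counts were 16 of 30 (53.3%) and 5305 of 33469 (15.9%). By role, 2 units were found in 4 of 4 inducible members with a window, in 5 of 8 cochaperones, in 3 of 4 mitochondrial chaperones, in 3 of 8 CCT subunits and in 0 of 3 prefoldin subunits. These are matches of letters, and binding was not measured.

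The arrays are described before the results because 1 control stood apart for heat shock genes. Control 69 had 8 of the 32 members more than 1 log2 unit above the mean of controls 63 and 68. Over all tested genes the same held for 89 of 9928 (0.896%). No other rat had a member more than 1 unit above the mean of the other rats of its group. In control 69, Bag3, a cochaperone that links HSP70 to autophagy, was higher than in the other controls by 3.00 (8.02-fold), and only Fam111a exceeded it among all genes. Hsph1, an HSP110 nucleotide exchange factor, was higher by 2.87 (7.32-fold), Hspb1, the small heat shock protein HSP27, by 2.59 and Dnajb1, the HSP40 partner of HSP70, by 2.04. They ranked 3, 4 and 9 of all genes. Dnaja1 (1.70), Hspe1 (1.49), Dnajb4 (1.19) and Hspd1 (1.14) followed. The CCT subunits did not share this difference, with a median of 0.12 in control 69, close to the median of 0.04 over all genes.

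**Figure D1:**
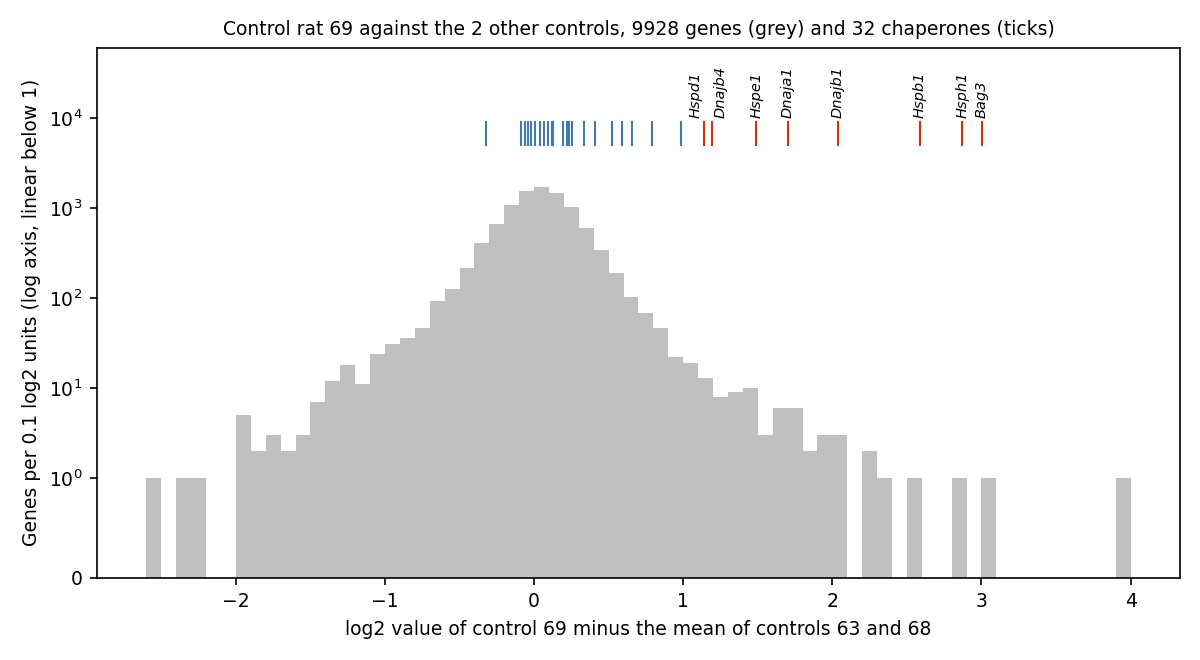
Histogram, on a log count axis, of the log2 value of control 69 minus the mean of controls 63 and 68 over 9928 genes, with a tick for each of the 32 measured members. The 8 named members, in red, lie above 1, where 89 genes in all are found.

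All of the 7 members above 1 that had a promoter window held 2 units of the heat shock element, and 4 of the 7 held 3 units. Both counts include Hspd1 and Hspe1, which share 1 element and are not independent. Among the other measured members 8 of 22 held 2 units and 1 of 22 held 3. Of the genes outside the list that were more than 1 unit higher in control 69, 9 of 65 (13.8%) held 2 units and 0 of 65 held 3. Among all tested genes the shares were 11.9% and 0.476%. These sets were drawn from the values of control 69, so the shares are a description without a test.

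Role groups, and the members whose calls or values turned on it, are therefore given with all 6 rats and again without control 69. Other features of the arrays also moved with the groups. Cell markers were read as the mean log2 value over each list. Border-associated macrophage markers (7 of 8 measured) lay between 12.95 and 13.92 on the control arrays and between 13.00 and 13.63 on the ischemic ones, and Cd163 itself between 12.63 and 13.86 and between 13.38 and 14.11. Monocyte markers (6 of 7 measured, 5 of them higher) ranged from 8.52 to 9.36 on control arrays and from 11.88 to 12.88 on ischemic arrays. Vcan (6.74) and Fn1 (5.96) differed most, and the paper lists both among the genes most induced in these macrophages. Ly6c (4.68), Itgam (2.24) and Plac8 (1.31) were the other monocyte markers called higher. Ccr2 was the monocyte marker that did not pass (0.43). The paper also reports negligible entry of CD163+ cells from the blood at this time. Granulocyte markers (4 of 8 measured) ranged from 6.42 to 6.52 and from 7.08 to 7.88. Oligodendrocyte markers were at 9.56 to 10.83 and 8.37 to 9.06. Mobp (-1.93) and Mbp (-1.83) were called lower, and Mog, Mag and Cnp gave -1.85 to -0.60 without passing. Of the granulocyte markers, Lcn2 was the one called (higher by 3.34), and Cxcr2 differed by -0.50 without passing. Camp and Mmp8 stayed below the level needed for the test (7.156) on all 6 arrays. Camp was nevertheless higher in every ischemic rat than in every control (0.72). The paper reports that the CD163+ cells sorted from ischemic tissue included some granulocytes. Neuron markers lay between 7.35 and 7.64 on control arrays and between 6.54 and 7.05 on ischemic arrays. Gria2 was the 1 neuron marker called (-3.75), and the others differed by -0.52 to 0.15. The paper lists Gria2 among the genes most lowered in these macrophages. Astrocyte markers lay between 7.70 and 9.60 and between 8.54 and 8.79, and Gfap was the 1 called (higher by 2.07). Gja1 gave 0.23, and Aqp4, Slc1a2, Aldoc and S100b gave -0.60 to -0.08. Microglia markers lay between 10.45 and 10.69 and between 9.28 and 10.34. P2ry12 was the 1 called (-1.78), and Gpr34 (-1.71), Sall1 (-0.13) and Tmem119 (0.61) did not pass. The difference between 3' and 5' probe sets of actin, a measure of RNA integrity and amplification, ran from 0.058 to 0.073 log2 units on control arrays and from 0.168 to 0.237 on ischemic arrays. Control 63 had the lowest ceiling of signal, 13.85 against 14.89 to 14.96 on the other arrays, and the highest endothelial marker level, 9.97 against 7.79 to 8.61. The part of these differences in the chaperone results was not tested, and in sorted bulk cells a change in RNA per cell cannot be told apart from a change in the mixture of cells.

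Across the set, 16 of the 32 measured members were higher after ischemia, 1 was lower and 15 did not pass the test (limma, adjusted p under 0.01 over all 9928 genes). Over all genes 16.8% were higher and 5.99% lower. At that threshold with a log2 fold change beyond 2 as well, 0 of the 32 passed, against 1.63% of all genes upward and 0.584% downward, and 23 of the 32 had an unadjusted p under 0.05, against 5014 of 9928 genes. All ischemic rats lay above all controls for 21 members, against 35.7% of all genes, and below them for 4 members, against 19.9%. The median log2 fold change was 0.63 over the members and 0.10 over all genes. Without control 69, 12 members were higher and 2 lower, against 9.92% and 2.64% of all genes, and the member median was 0.77. The groups of genes did not share 1 pattern, and they are taken in turn.

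**Figure D2:**
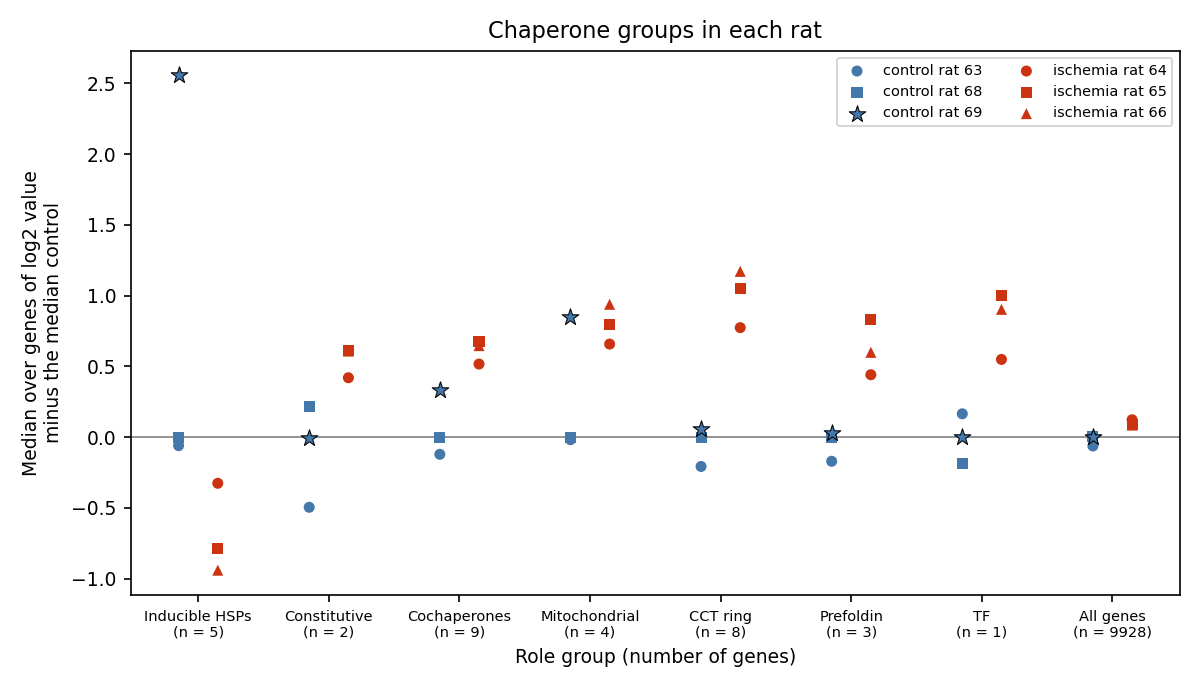
For each rat, the median over the genes of a role group of the log2 value minus the median control value. Control 69 (star) lies at 2.56 for the inducible heat shock proteins, while for the CCT ring all controls lie between -0.21 and 0.06 and the ischemic rats between 0.77 and 1.17.

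No inducible heat shock protein passed the test upward. Of the 5 measured, 0 were higher, 1 was lower and 4 did not pass in limma, against 16.8% of all genes higher and 5.99% lower. With 5 genes these counts were not tested against those shares. At an unadjusted p under 0.05, 0 were higher and 3 lower, while 5014 of 9928 genes had such a p in either direction. The median log2 fold change was -1.31, or -0.63 without control 69. In that fit 0 were higher and 2 lower, against 9.92% and 2.64% of all genes. Dnajb4, an HSP40 protein, stood at 12.16, 12.09 and 13.32 in controls 63, 68 and 69, and at 11.25, 10.85 and 10.74 in ischemic rats 64, 65 and 66. All ischemic rats lay below all controls. The log2 fold change was -1.57 ± 0.32 (SE; adjusted p = 0.00641), and -1.18 ± 0.19 (adjusted p = 0.00596) without control 69, a 2.26-fold lower level. The call was lost on leaving out control 63, control 68, ischemic rat 65 or ischemic rat 66, with adjusted p between 0.0114 and 0.0238.

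Hspb1 was chosen for its per-rat values after they had been seen, as was Bag3. In controls 63, 68 and 69 Hspb1 was at 10.39, 10.45 and 13.00, and in ischemic rats 64, 65 and 66 at 9.44, 9.23 and 8.99. The groups did not overlap, and control 69 alone widened the control SD to 1.49. With all rats the log2 fold change of -2.06 ± 0.62 missed the threshold (adjusted p = 0.0306). Without control 69 the change was smaller, -1.20 ± 0.17, and passed it (adjusted p = 0.00464).

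Dnajb1 was at 12.04, 12.15 and 14.13 in the controls and at 11.82, 11.37 and 11.21 after ischemia. Its ischemic values also lay below every control, by -1.31 ± 0.51 (adjusted p = 0.0713), or -0.63 ± 0.21 (adjusted p = 0.0548) without control 69, and neither passed. A second Dnajb1 probe set gave 10.93, 10.93 and 13.29 against 10.04, 9.64 and 9.67, a difference of -1.94 (adjusted p = 0.0276).

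For Hsph1 the difference rested on control 69. Its values were 10.91, 10.83 and 13.74 in controls and 10.60, 10.91 and 10.93 after ischemia. The log2 fold change was -1.01 ± 0.69 (adjusted p = 0.267) with all rats and -0.05 ± 0.16 (adjusted p = 0.814) without control 69. Its second probe set showed control 69 in the same place, at 13.32 against 10.33 to 10.81 in the other 5 rats. Bag3 turned its direction. It was at 9.19, 9.30 and 12.25 in controls and at 9.76, 9.74 and 9.74 after ischemia, so that the difference was -0.50 ± 0.71 (adjusted p = 0.60) with control 69 and 0.50 ± 0.14 (adjusted p = 0.0310) without it. Neither value passed.

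**Figure D3:**
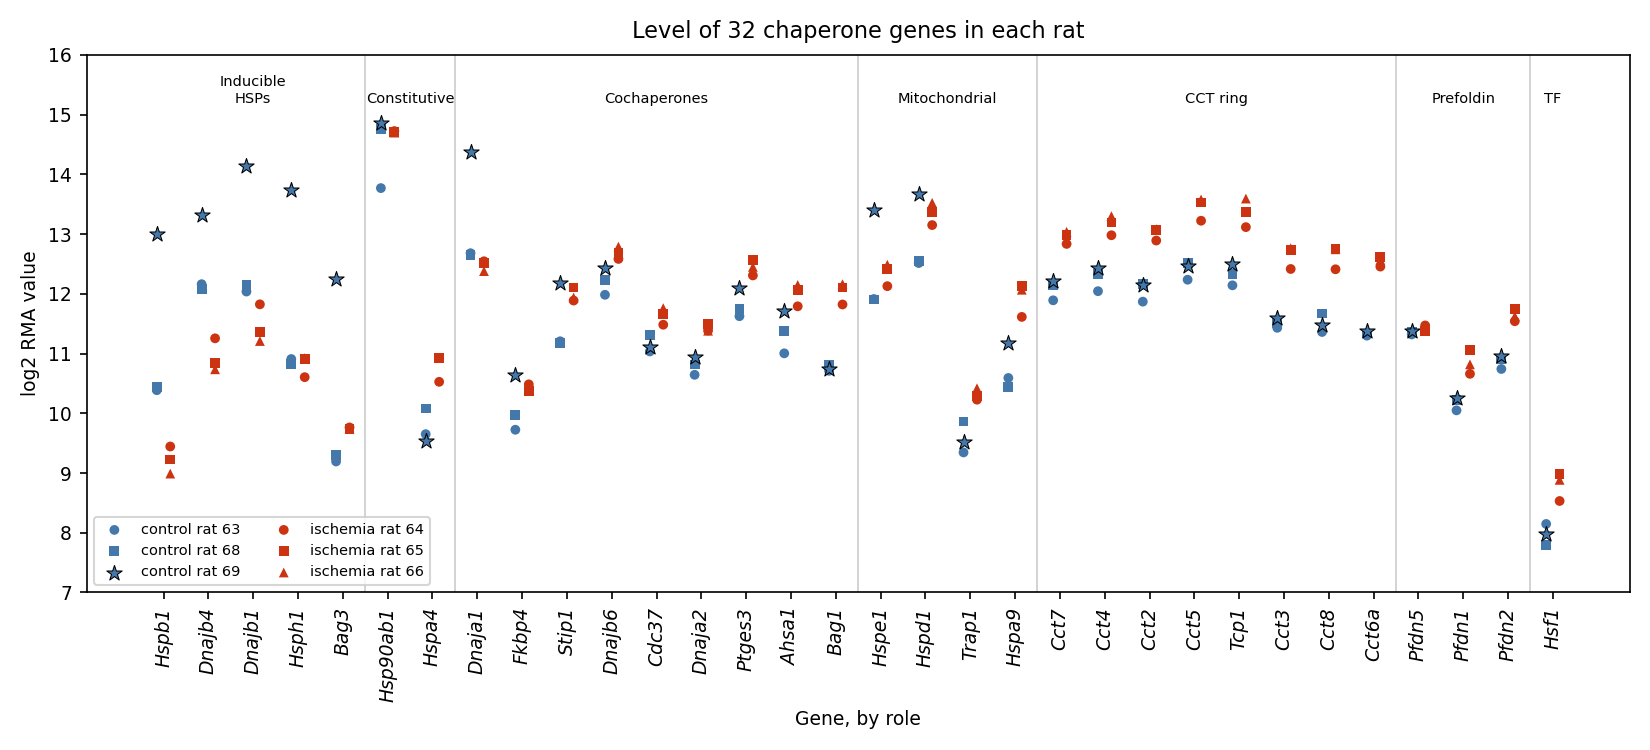
Log2 RMA value of each of the 32 measured members in each rat, ordered by role and then by fold change. Control 69 (star) lies above the other controls and above all ischemic rats for Hspb1, Dnajb4, Dnajb1, Hsph1, Bag3, Dnaja1, Hspe1 and Hspd1, and within 0.26 of the mean of the other controls for the CCT subunits.

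Hspa1a, the main stress-induced HSP70, is not a member but is the closest relative of the unmeasured Hspa1b, and it had a probe set of its own. It was bright in every rat, at 13.52, 14.35 and 14.86 in controls and 13.56, 13.15 and 12.74 after ischemia. The groups overlapped through control 63, the array with the lowest ceiling (13.85), which lay below ischemic rat 64. Controls 68 and 69 lay above all ischemic rats. The part of that ceiling in the overlap was not tested. The difference of -1.09 ± 0.34 did not pass (adjusted p = 0.0339), nor did the -0.78 found without control 69 (adjusted p = 0.0954). Control 69 was the highest of the 6 rats for Hspa1a too.

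The constitutive chaperones gave 1 of 2 measured genes higher, against 16.8% of all genes, with a median of 0.64. Without control 69 the count was 0 of 2, against 9.92% of all genes, and the median 0.69. Hspa4, an HSP110 family exchange factor of HSP70, was at 9.65, 10.08 and 9.54 in controls and at 10.53, 10.93 and 10.93 after ischemia. The groups were apart, with a log2 fold change of 1.04 ± 0.19 (adjusted p = 0.00387). Without control 69 the size was much the same, 0.93 ± 0.20, but missed the threshold (adjusted p = 0.0148), and it was also missed without control 63, ischemic rat 65 or ischemic rat 66 (adjusted p 0.0159 to 0.0193). Hsp90ab1, the constitutive HSP90, was among the brightest members, at 13.77, 14.76 and 14.86 in controls and at 14.72, 14.71 and 14.70 after ischemia. The single low value was that of control 63, the array with the lowest ceiling, and its cause was not tested. The groups overlapped, and the log2 fold change was 0.25 ± 0.27 (adjusted p = 0.481). A second Hsp90ab1 probe set was also lowest in control 63, at 13.061 against 13.628 to 13.905 in the other rats (0.20; adjusted p = 0.465).

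Among the 9 cochaperones 2 were higher, against 16.8% of all genes, and 7 did not pass. The median was 0.48, or 0.69 without control 69. Bag1, a nucleotide exchange factor of HSP70, had the largest rise among the 32 members. It was at 10.71, 10.81 and 10.74 in controls and at 11.82, 12.11 and 12.16 after ischemia, and control 69 lay between the other controls. It rose by 1.28 ± 0.14 (2.42-fold; adjusted p = 0.000594) with all rats and by 1.27 ± 0.16 (adjusted p = 0.00334) without control 69. The call held on leaving out each rat in turn. Dnaja2, an HSP40 partner of the constitutive HSP70, was at 10.64, 10.82 and 10.95 in controls and at 11.39, 11.49 and 11.38 after ischemia. It rose by 0.62 ± 0.13 (adjusted p = 0.00762), and this call was lost on leaving out any of the 6 rats (adjusted p 0.0129 to 0.0409).

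Dnaja1, another HSP40 partner and the cochaperone whose window held 3 units, behaved like the inducible group. Its values were 12.68, 12.65 and 14.37 in controls and 12.55, 12.51 and 12.38 after ischemia. The ischemic rats lay below all controls, but by -0.75 ± 0.42 (adjusted p = 0.180) with all rats and -0.19 ± 0.14 (adjusted p = 0.343) without control 69. Its second probe set gave -1.43 (adjusted p = 0.0284) with all rats. Dnajb6, which holds back aggregation, was at 11.98, 12.23 and 12.44 in controls and at 12.58, 12.68 and 12.79 after ischemia, a difference of 0.47 ± 0.15 (adjusted p = 0.0385).

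Cochaperones of HSP90 all had positive log2 fold changes that did not pass with all rats. They were 0.64 for Ahsa1, which stimulates the HSP90 ATPase, 0.62 for Ptges3 (p23), 0.48 for Cdc37, which brings kinases to HSP90, 0.46 for Stip1 (HOP), which joins HSP70 to HSP90, and 0.30 for Fkbp4 (FKBP52). Their adjusted p lay between 0.0164 and 0.303. Stip1, like Hspb1 in the other direction, gained a call without control 69, where it was higher by 0.78 ± 0.15 (adjusted p = 0.00891). It was at 11.21, 11.18 and 12.17 in controls and at 11.89, 12.10 and 11.94 after ischemia, so that control 69 lay above all ischemic rats while the other controls lay below them.

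The mitochondrial chaperones divided. Of the 4 genes 2 were higher, against 16.8% of all genes, and the median was 0.59. Without control 69 the count was 1 of 4, against 9.92% of all genes, and the median 0.76. Hspa9, the mitochondrial HSP70 that drives import (mortalin), was at 10.59, 10.44 and 11.17 in controls and at 11.61, 12.13 and 12.07 after ischemia. It rose by 1.20 ± 0.22 (2.30-fold; adjusted p = 0.00446), and by 1.42 ± 0.20 (adjusted p = 0.00398) without control 69. Leaving out control 63, control 68, ischemic rat 65 or ischemic rat 66 took its adjusted p to 0.0171 to 0.0206. Its probe sets did not give 1 answer: of the other 3, log2 fold changes were 0.78 (adjusted p = 0.0160), 0.76 (adjusted p = 0.0408) and -1.0 (adjusted p = 0.105). Trap1, the mitochondrial HSP90, was at 9.34, 9.86 and 9.51 in controls and at 10.23, 10.28 and 10.42 after ischemia, and rose by 0.74 ± 0.16 (adjusted p = 0.00833). Its call was lost without control 69 (0.71; adjusted p = 0.0292), and leaving out control 68 was the only such fit in which it was kept (adjusted p = 0.00662).

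Hspd1 (HSP60) and Hspe1 (HSP10) share the promoter shown above. They were the mitochondrial chaperones more than 1 log2 unit above the mean of the other controls in control 69. Hspa9 was 0.66 above that mean, and Trap1 differed from it by -0.09. Hspd1 was at 12.52, 12.55 and 13.67 in controls and at 13.15, 13.37 and 13.52 after ischemia. Control 69 lay above the ischemic rats and the other controls below them, and the log2 fold change was 0.44 ± 0.30 (adjusted p = 0.273), or 0.82 ± 0.16 (adjusted p = 0.0111) without control 69. Hspe1 was at 11.91, 11.90 and 13.40 in controls and at 12.13, 12.41 and 12.49 after ischemia. Its difference was -0.06 ± 0.37 (adjusted p = 0.906) with all rats and 0.43 ± 0.16 (adjusted p = 0.0805) without control 69.

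The subunits of the CCT ring moved together. All 8 rose past the test, against 16.8% of all genes, and the log2 fold changes ran from 0.87 to 1.21 (1.83-fold to 2.31-fold). For each subunit every ischemic rat lay above every control, which held for 35.7% of all genes. The median was 1.04, and 1.10 without control 69, where again all 8 were higher, against 9.92% of all genes. Cct6a (the zeta subunit) was at 11.30, 11.34 and 11.38 in controls and at 12.46, 12.62 and 12.57 after ischemia. The control spread was small (11.34 ± 0.04, SD, n = 3, against 12.55 ± 0.08, SD, n = 3), and the log2 fold change was 1.21 ± 0.12 (adjusted p = 0.000459). Cct8 (theta) was at 11.36, 11.67 and 11.47 in controls and at 12.41, 12.76 and 12.75 after ischemia, a rise of 1.14 ± 0.15 (adjusted p = 0.00125). Cct3 (gamma) was at 11.43, 11.51 and 11.59 in controls and at 12.42, 12.74 and 12.76 after ischemia, a rise of 1.13 ± 0.14 (adjusted p = 0.00103).

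Tcp1, which encodes the alpha subunit that gave the ring its other name TRiC, was at 12.14, 12.33 and 12.49 in controls and at 13.12, 13.37 and 13.59 after ischemia, a rise of 1.04 ± 0.16. Cct5 (epsilon) was at 12.24, 12.51 and 12.47 in controls and at 13.22, 13.53 and 13.58 after ischemia, a rise of 1.04 ± 0.15. Within the ischemic group rat 64 was the lowest for all 8 subunits. Cct2 (beta), Cct4 (delta) and Cct7 (eta) rose by 0.95, 0.89 and 0.87. Differences between subunits in the size of the rise were of the order of their SE (0.12 to 0.16) and were not tested. Second probe sets of Cct5, Cct6a and Cct8 gave 1.05, 1.29 and 1.17, all past the threshold. The count of 8 was 4 without ischemic rat 65, 6 without ischemic rat 66, 6 without control 68, 5 when arrays were centred on ribosomal protein genes, and 0 without variance moderation.

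**Figure D4:**
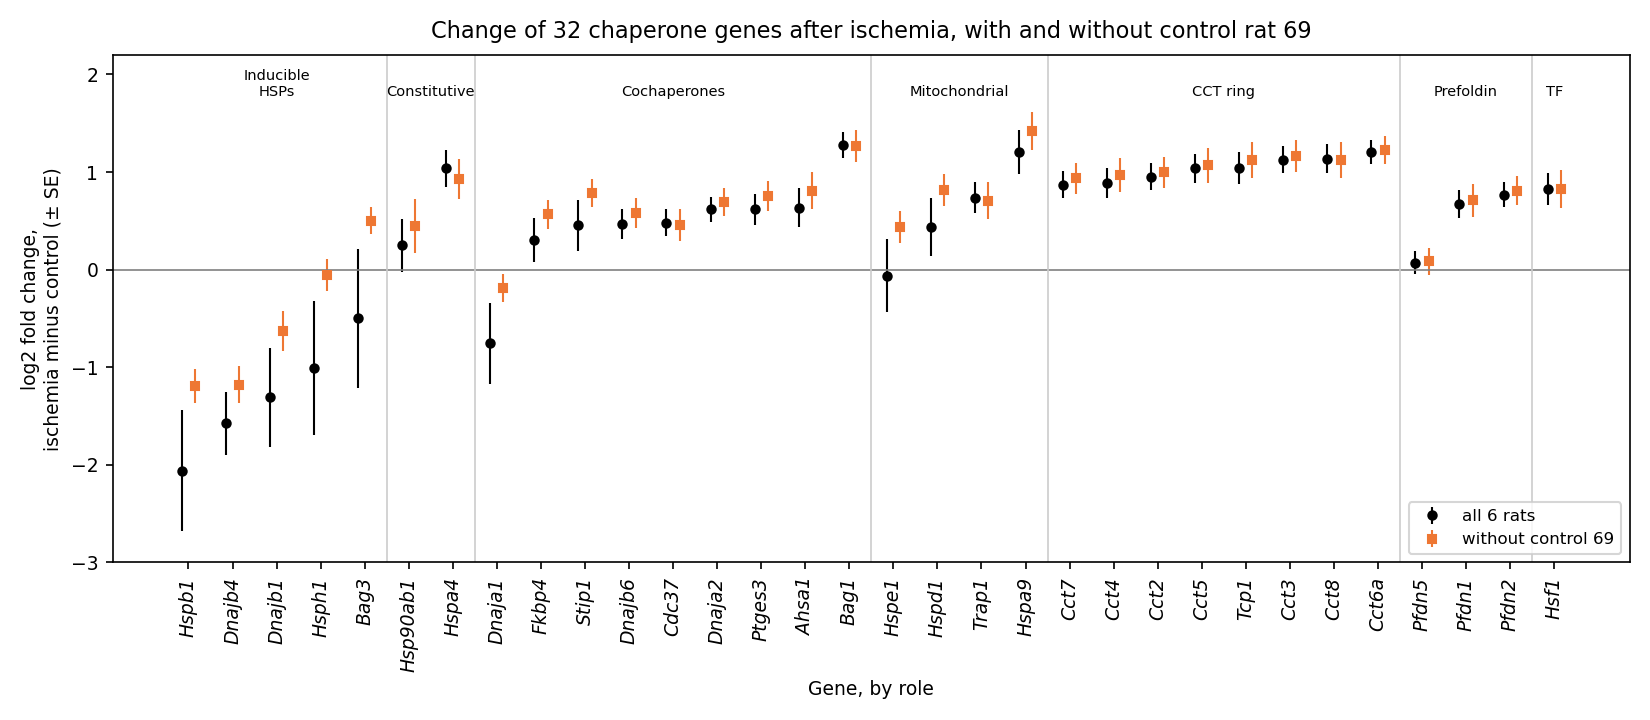
Log2 fold change (ischemia minus control, ± SE) of the 32 members with all 6 rats (black) and without control 69 (orange). Without control 69 the inducible genes move towards 0 or change sign (Bag3, from -0.50 to 0.50) and their SE shrinks, while the CCT subunits keep values from 0.93 to 1.23.

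Prefoldin, the hexamer that hands actin and tubulin chains to CCT, had 2 of 3 subunits higher and a median of 0.67. Without control 69 the count was 1 of 3 and the median 0.71. The shares of all genes higher were 16.8%, and 9.92% without control 69. Pfdn2 was at 10.74, 10.92 and 10.96 in controls and at 11.54, 11.75 and 11.62 after ischemia, a rise of 0.77 ± 0.13 (adjusted p = 0.00300). It also passed without control 69 (0.81; adjusted p = 0.00891) but not without ischemic rat 65 (adjusted p = 0.0192) or 66 (adjusted p = 0.0126), and its second probe set did not pass (0.39; adjusted p = 0.0630). Pfdn1 was at 10.05, 10.22 and 10.25 in controls and at 10.66, 11.05 and 10.82 after ischemia, a rise of 0.67 ± 0.15 (adjusted p = 0.00815) that passed on leaving out ischemic rat 64 (adjusted p = 0.00684) but no other rat (adjusted p 0.0201 to 0.0412). Pfdn5 did not pass, at 11.32, 11.37 and 11.38 in controls and 11.47, 11.38 and 11.43 after ischemia (0.07 ± 0.11; adjusted p = 0.642).

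Hsf1, the regulator itself, was the dimmest member, at 8.15, 7.80 and 7.98 in controls and at 8.53, 8.98 and 8.89 after ischemia. It rose by 0.82 ± 0.16 (adjusted p = 0.00585), and control 69 lay 0.01 above the mean of the other controls. The call was lost without any 1 control or without ischemic rat 65 or 66 (adjusted p 0.0106 to 0.0292). The array measures the transcript, whereas HSF1 is known to be controlled largely at the protein.

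Other genes of the same pathways were read from lists drawn up by function. Their counts stand beside 16.8% of all genes higher and 5.99% lower, or 9.92% and 2.64% without control 69. Among other HSP70 and small heat shock proteins 1 of 8 tested was higher and 0 lower. It was Hspa14, a ribosome-associated HSP70, by 0.84 ± 0.15 (adjusted p = 0.00351), and it missed the threshold without control 69 (0.73; adjusted p = 0.0120), which left 0 of 8. Other J proteins (the HSP40 family) gave 5 of 23 higher and 0 lower, led by Dnajc15 at 1.14, Dnajc2 at 1.12 and Dnajc21 at 1.11. Dnajc8 was the brightest that did not pass (0.38). Those 3 leading genes were the 3 of 23 that passed without control 69. Dnaja4, chosen after its values were seen, followed the inducible members, at 11.05, 10.70 and 13.14 in controls and at 10.48, 10.36 and 10.33 after ischemia (-1.25; adjusted p = 0.103), or -0.49 (adjusted p = 0.0569) without control 69.

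Other cochaperones gave 5 of 22 higher and 0 lower, against 16.8% and 5.99% of all genes, or 9.92% and 2.64% without control 69. Fkbp5 (FKBP51), an HSP90 partner and a textbook glucocorticoid-induced gene, was at 8.50, 8.71 and 8.24 in controls and at 11.71, 11.63 and 11.52 after ischemia, a rise of 3.13 ± 0.15 (adjusted p = 4.25e-05). Nudc rose by 1.18 and Bag2 by 1.10, while Cacybp, the brightest that did not pass, gave 0.11. The count fell to 4 of 22 without control 69, these leading genes among them. Other mitochondrial chaperones and proteases gave 6 of 12 higher and 0 lower, led by the protease subunit Clpp at 1.22, the disaggregase Clpb at 1.09 and the protease Lonp1 at 0.82, while Htra2 gave -0.24 without passing. Without control 69 the count was 2 of 12, Clpp (1.31) and Lonp1 (0.91), and Clpb missed the threshold (adjusted p = 0.0112).

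Partners of prefoldin and CCT, with the tubulin cofactors, gave 3 of 13 higher and 0 lower. Over all genes the shares were 16.8% and 5.99%, or 9.92% and 2.64% without control 69. The higher genes were Pfdn4, another prefoldin subunit, at 1.05, the tubulin cofactor Tbcb at 0.77 and the CCT partner Pdcl3 at 0.74. Tbca (0.57) was the brightest of this list that did not pass. Without control 69 only Pfdn4 passed, 1 of 13, with an adjusted p of 0.01112 for Tbcb and 0.01004 for Pdcl3, just outside the threshold. Cytoskeletal clients of CCT gave 4 of 8 tested higher and 0 lower. Tubb6, a beta tubulin, was at 7.89, 8.36 and 9.45 in controls and at 11.22, 11.35 and 11.43 after ischemia, a rise of 2.77 ± 0.35 (adjusted p = 0.00103). Actg1 (gamma actin) rose by 0.93 and Tubb4b by 0.79, and Tubb2a gave 0.30 without passing. It was 3 of 8 without control 69, the genes just named as higher. Of 4 heat shock transcription genes tested 0 were higher and 0 lower in limma at this threshold, and 1 was higher at an unadjusted p under 0.05. Hsbp1, a binding partner of HSF1, gave 0.23 (adjusted p = 0.371). At an unadjusted p under 0.05 the same 7 lists had 0 or 1 lower gene each. At that cut HSP70 and small heat shock proteins had 2 of 8 higher, J proteins 13 of 23 and cochaperones 10 of 22. Mitochondrial genes had 7 of 12, partners of prefoldin and CCT 6 of 13, clients 4 of 8 and heat shock transcription genes 1 of 4. Over all genes 5014 of 9928 had such a p, in either direction. The medians of these lists, from 0.04 for the HSP70 and small heat shock proteins to 0.58 for the clients, stand beside 0.10 over all genes.

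The scale of the arrays bears on every rise reported here. Of all genes past the test, 73.7% were higher after ischemia with the deposited values. This share was 59.9% when quantile normalization was repeated and 41.3% when each array was centred on its 48 ribosomal protein genes, a step that moved the median of all genes from 0.10 to -0.17. Under the latter scaling 6 members were higher, 5 of them CCT subunits and the other Bag1, and the CCT median was 0.77.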

How the data were processed

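RNA of sorted macrophages was amplified and hybridised to Affymetrix 3' arrays. Per the labels, the authors processed the arrays with RMA and used limma 3.18 in R 3.3.1, and they deposited 1 table of log2 values for 31099 probe sets and 6 arrays, with no counts, so precision is limited by the 3 rats per group. Here 20826 probe sets with 1 gene symbol gave 14217 genes, with the brightest probe set (mean over the 6 arrays) kept for each gene. Genes with at least 3 arrays above the 40th percentile (7.156) were tested, 9928 in all. The test was limma (3.58.1, R 4.3.3), two-sided, Benjamini-Hochberg over all of them, at an adjusted p under 0.01. The study also removed genes of low variability, at a cutoff not given in the sources used here, so this was an alternative. The script was tested on simulated data. Members and lists were chosen with earlier results of these data known, so no list was tested. Per-rat values are given, in each role group, for up to 5 members past the test by size and 2 brightest not past, and from each other list up to 3 genes past it and 1 brightest not past are named. Exceptions are stated. Windows for Hspa1b, Hsp90aa1, Dnaja2, Dnajb4 and Hsf1 were not used here. Alternatives were the filter, probe set, scaling, moderation, array weights, threshold and leaving out each rat.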

Additional observations from a re-analysis of the deposited data

How the results depend on the processing

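The number of members higher after ischemia, 16 with the main settings, was 6 with arrays centred on ribosomal protein genes, 0 without variance moderation (lowest adjusted p over all genes 0.0101; 20 members and 4478 of 9928 genes had an unadjusted p under 0.05) and 0 with a log2 fold change beyond 2 required. Leaving out each rat in turn gave 5 to 14, with 5 without ischemic rat 65, 7 without ischemic rat 66, and 10 without control 63 or control 68. Over all genes the count fell as well, from 1664 to 641 with ribosomal protein centring, 681 without ischemic rat 65 and 818 without ischemic rat 66. The number lower, 1, was 0 without the low-signal filter, without moderation or with the fold threshold, 2 at an adjusted p under 0.05, 3 with array weights, and 0 to 2 on leaving out each rat. The filters, the mean over probe sets, median centring, repeated quantile normalization, robust moderation and moderation with a trend kept 12 to 16 members higher. Centring on ribosomal protein genes lowered the median log2 fold change to 0.37 for the constitutive chaperones, 0.21 for the cochaperones, 0.31 for the mitochondrial chaperones (whose 2 calls became 0), 0.77 for CCT and 0.40 for prefoldin. Leaving out each rat gave medians of 0.42 to 0.69 for the cochaperones.

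Among single members the sign changed for Hspe1 (0.43 without control 69, 0.04 without ischemic rat 64; -0.31 to 0.43 over the fits that left out 1 rat), for Hspa9 at 1 of its probe sets (-1.0), for Hsp90ab1 (-0.022 with ribosomal protein centring, -0.068 with repeated quantile normalization; -0.10 to 0.45 on leaving out 1 rat, the lowest without control 63), for Bag3 (-1.03 to 0.50, the highest without control 69) and for Pfdn5 (-0.20 with ribosomal protein centring, -0.082 with repeated quantile normalization). None of these values passed the test. The cause was not tested. No paired analysis was possible because the groups share no rat number. With 3 rats per group, a difference that misses the threshold may still be present.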

Other observations

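Early response genes, which tissue dissociation can raise, were read as a further list. Of 19 tested, 1 was higher after ischemia and 3 were lower, with a median log2 fold change of -0.61. Over all genes 16.8% were higher and 5.99% lower, or 9.92% and 2.64% without control 69. Fosb, an AP-1 subunit, was at 13.24, 13.26 and 13.90 in controls 63, 68 and 69 and at 12.26, 11.47 and 11.52 after ischemia, and fell by 1.71 on the log2 scale (adjusted p = 0.00201). Klf2 fell by 1.43 and Nr4a1 by 0.93, both past the test (adjusted p = 0.00240 and 0.00365). Socs3, the feedback inhibitor of cytokine signalling, rose by 1.05 (adjusted p = 0.00463). Without control 69 the counts were 1 higher and 2 lower, and Nr4a1 missed the threshold (adjusted p = 0.0122). In control 69 the median over the list was 0.50 above the mean of controls 63 and 68, against 0.25 over the 32 chaperones and 0.04 over all genes. No gene of the list was more than 1 unit above, as 8 of the chaperones and 0.896% of all genes were.

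Outside the chaperones, the genes furthest above the other controls in control 69 were Fam111a (12.19 against 8.08 and 8.45), Dedd2 (9.77 against 7.24 and 7.59) and Pdk4 (10.40 against 7.58 and 8.76). The ischemic mean of Fam111a was 8.02, near the other controls. Zfand2a, a stress-induced proteasome adaptor, was at 13.61 against 11.47 and 12.19. The first 3 genes were picked for their rank in control 69 and Zfand2a, at rank 17, for its known function, and their values are a description.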
